A study of Mus musculus with 2 samples.

Results

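The 6 megabases of the mouse genome with the most CtBP2 sites in MIN6 cells were examined bin by bin and site by site. They form 5 stretches of build mm9, namely 79 to 81 Mb of chromosome 10, 52 to 53 Mb of chromosome 7, 73 to 74 Mb of chromosome 8, 5 to 6 Mb of chromosome 19 and 56 to 57 Mb of chromosome 17. All 6000 bins of 1 kb in these stretches were taken, out of 2560221 bins in 10 kb pieces of the genome that held input reads. They held 619 of the 29388 sites called over the genome. Each stretch was set against the 5 Mb on either side, together 46770 bins with 817 sites. The first 3 Mb of chromosome 19 held no reads, which left 2 Mb of its lower flank.

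MIN6 is a mouse insulinoma line that stands in for pancreatic beta cells in culture, and it was grown in regular culture with no treatment. There were 2 libraries: 1 of chromatin precipitated with an antibody against CtBP2 (ChIP) and 1 of input chromatin taken without an antibody. Each group had 1 library, and nothing can be said about the spread between cultures. Of the deposited reads, 8474671 distinct ChIP reads and 12471942 distinct input reads remained when 1 read was kept per chromosome, 5 prime end and strand, and every read number below is of distinct reads unless stated. A control precipitation with IgG was not analysed here.

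CtBP2 is a transcriptional co-repressor that does not read a DNA sequence by itself. It is brought to chromatin by DNA-binding partners such as zinc finger repressors, and it carries histone-modifying enzymes with it. It also binds NAD(H), which ties its assembly to the metabolic state of the cell, a property studied in beta cells. A ChIP site is here a place where ChIP reads exceeded a count expected from the genome-wide average or the input of the surrounding 1 to 10 kb. The input of the window itself is not part of that rule. The site at 80482451 to 80482650 of chromosome 10, for example, held 17 ChIP and 26 input reads. Whether CtBP2 lay at each site, directly or through partners, was not tested.

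A site was called where windows of 200 bp held at least 3 times the expected ChIP count with an adjusted p of at most 0.01 (Poisson test per window, Benjamini-Hochberg over all windows of the genome). The expected count of a window was its genome-wide average or, where higher, the scaled input density of the surrounding 1, 5 or 10 kb. The megabases were chosen by the number of such sites. Site numbers, and every other value from the same ChIP and input reads, are therefore a description of these 2 libraries, and no difference between the megabases and the flanks was tested. Intervals are 95% Poisson or Wilson intervals and cover counting error only, because reads of amplified libraries are not independent molecules.

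The upper megabase of chromosome 10, from 80 to 81 Mb, held 142 sites and the lower one, from 79 to 80 Mb, held 131. Next came chromosome 7 with 97, chromosome 8 with 94, chromosome 19 with 78 and chromosome 17 with 77. The order has no step at its lower end, since the next megabase, 19 to 20 Mb of chromosome 7, held 76 sites and the following 3 held 68 each. The step lies between chromosome 10 and the others. With other settings of the call the chromosome 10 megabases always took the first 2 ranks and those of chromosomes 7 and 8 ranks 3 and 4. Chromosome 17 fell to rank 21 when windows of very high input were left out. It fell to rank 7 at a stricter adjusted p and with windows of 500 bp. Chromosome 19 fell to rank 7 with all deposited reads and at a fold of at least 5.

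Together the 6 megabases made up 0.2344% of the analysed length, and held 2.106% of all sites, 1.321% of distinct ChIP reads and 0.5459% of input reads. Site density was 103.2 per Mb, against 17.47 in the flanks and 11.15 in the rest of the genome. The ratio to the flanks, 5.91, is a summary of unlike stretches. Site density was 12.03 times that of the flanks on chromosome 17, 7.18 times on chromosome 10, 6.69 times on chromosome 7, 5.44 times on chromosome 8 and 2.16 times on chromosome 19. Chromosome 19 has the lowest ratio because its flanks were themselves dense, with 36.1 sites per Mb, and chromosome 17 the highest because its flanks held 6.4 per Mb. With the chromosome 19 stretch and its flanks left out the pooled ratio rose to 7.57.

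Stretches also differed in how sharply site number fell at their edges. On chromosome 17 the megabase below the stretch held 7 sites and the one above it 23, against 77 inside. On chromosome 10 the megabase below the stretch held 13 sites and the one above it 39. The neighbours of the chromosome 7 stretch held 45 and 36 sites. On chromosome 8 the neighbours held 59 and 55 sites and on chromosome 19 they held 55 and 58. The 58 sites lay in 810 analysed bins, and the next megabase up held 43. Both of these stretches are thus the top of a dense region, of about 3 Mb on chromosome 8 and wider on chromosome 19. The flank values include the shoulders of these regions. With flanks of 2 Mb in place of 5 Mb the pooled ratio of site density was 3.60.

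**Figure D1:**
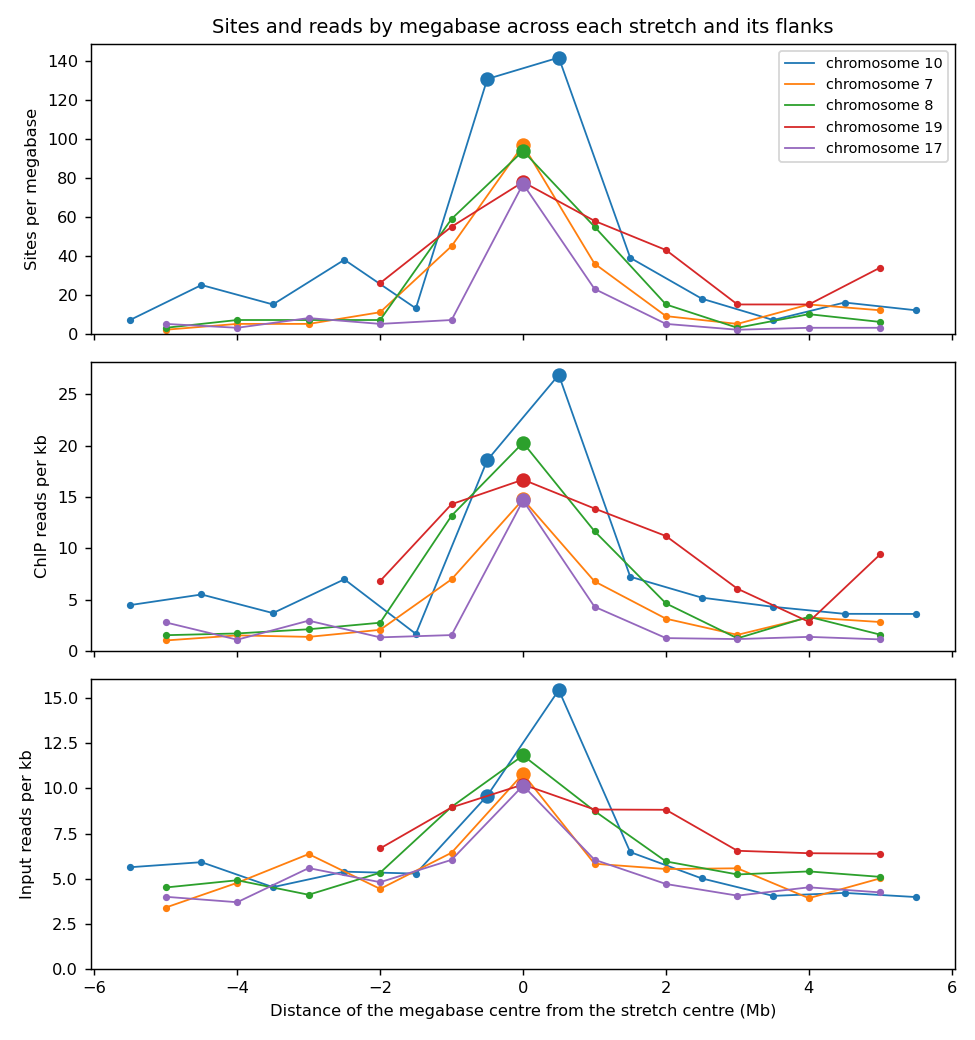
Sites per megabase (top), distinct ChIP reads per kb (middle) and distinct input reads per kb (bottom) for each megabase of the 5 stretches and their flanks, against the distance of its centre from the stretch centre in Mb. Large points are the 6 megabases and small points the flanks; site number falls from 77 to 7 and 23 next to the chromosome 17 stretch but only from 94 to 59 and 55 next to that of chromosome 8, and input reads peak at the same megabases as ChIP reads.

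ChIP reads were denser in all 6 megabases than in their flanks. The upper megabase of chromosome 10 held 26.9 ChIP reads per kb (95% Poisson interval 26.6 to 27.2), the lower one 18.6 (18.3 to 18.9), and the flanks of that stretch 4.64 (4.60 to 4.69). Chromosome 8 followed with 20.3 reads per kb inside and 4.39 in the flanks, chromosome 19 with 16.7 and 9.10, chromosome 7 with 14.8 and 3.07, and chromosome 17 with 14.7 and 1.91. Among the 2585 megabases with input reads, the 6 stood at ranks 2 to 13 by ChIP reads, so megabases with fewer sites held as many reads.

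Input reads were denser there as well, in every stretch. The upper megabase of chromosome 10 held 15.5 input reads per kb (95% Poisson interval 15.2 to 15.7), the highest of the 6, and the lower one 9.60 (9.41 to 9.80), the lowest of the 6. The 10 Mb of flanks around both held 5.045 (5.002 to 5.09). The other megabases lay between 10.2 and 11.8 reads per kb and their flanks between 4.77 and 7.48. Over all stretches the ratio of megabases to flanks was 4.32 for ChIP reads and 2.05 for input reads. ChIP reads per input read were 1.64 in the 6 megabases, 0.782 in the flanks and 0.672 in the rest of the genome. The part that input depth has in the number of sites was not tested.

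The additional ChIP reads lay inside sites. In the 6 megabases sites covered 5.92% of the sequence and held 88.7% of its ChIP reads and 37.1% of its input reads. In the flanks they covered 1.03% and held 71.1% of ChIP and 13.7% of input reads. Of the 14.3 ChIP reads per kb by which the megabases exceeded the flanks, 94.0% were reads in sites. Sites are called on an excess of ChIP reads and the megabases were chosen by sites, so a large share follows in part from the rule. The stretches ranged from 91.9% on chromosome 17 to 95.2% on chromosome 8.

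Sequence at least 2 kb from any site was also read somewhat more deeply. It made up 57.9% of the 6 megabases and 91.5% of the flanks. There the megabases held 1.61 ChIP reads per kb (95% Poisson interval 1.57 to 1.66) against 1.17 (1.16 to 1.18) in the flanks, and 6.38 input reads per kb (6.29 to 6.46) against 4.62 (4.60 to 4.64). Both ratios were 1.38, and ChIP reads per input read were 0.253 on both sides. The equal pooled ratios came from unlike stretches: on chromosome 17 the ratio was 1.64 for ChIP and 1.45 for input, on chromosome 19 it was 1.18 and 1.10, and on chromosome 10 it was 1.40 for ChIP and 1.55 for input. On chromosomes 7 and 8 the ratios were 1.39 and 1.45, and 1.30 and 1.34. The upper megabase of chromosome 10 had the most input far from sites, 7.65 reads per kb, against 5.33 in the lower one. Copy number, base composition and mappability were not measured, and their part in this was not tested.

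Bins of 1 kb show the same unevenness at a finer scale. A bin was called raised when its ChIP count was at least 3 times the larger of the genome mean of 3.31 reads and the scaled input count of the same bin. This held for 444 of the 6000 bins, or 7.40% (95% Wilson interval 6.76 to 8.09), against 1.32% in the flanks and 0.939% of all bins of the genome. The level depends on the setting, with 14.7% in the megabases, 2.50% in the flanks and 1.67% over the genome when input was scaled on background bins, and 4.23%, 0.776% and 0.531% at a fold of at least 5. Under the rule that gave 7.40%, the share was 9.80% and 8.90% in the upper and lower megabases of chromosome 10. It was 7.20% on chromosome 8, 6.60% on chromosome 7, 6.20% on chromosome 19 and 5.70% on chromosome 17. Of the 444 raised bins, 441 held part of a site and 3 did not. In all 912 bins, or 15.2%, held part of a site, against 1.78% over the genome, and 471 of them were not raised. A bin's own input enters the rule for raised bins, while a site is called on windows of 200 bp against input over at least 1 kb.

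Most bins of the densest megabases were nearly empty all the same. The median bin held 2 ChIP reads and 30.7% of bins held none, against a median of 1 and 43.0% in the flanks. The upper end carried the reads, since 10% of bins in the megabases held 30 reads or more, against 3 in the flanks. There were 298 bins with at least 100 ChIP reads, or 4.97%, against 0.579% over the genome. Input had a median of 6 reads per bin in the megabases and 3 in the flanks. Input of at least 3 times its genome mean was found in 1292 bins (21.5%), against 7.503% in the flanks and 5.60% over the genome, and 56.7% of these bins held part of a site, against 27.5% in the flanks. The upper megabase of chromosome 10 had the most such bins, 341, and chromosome 19 the fewest, 152.

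Some bins met the reverse rule. In 337 bins (5.62%) input was at least 3 times the larger of its genome mean and the scaled ChIP count, against 4.30% in the flanks and 3.46% over the genome. The upper megabase of chromosome 10 held 90 of them and the lower one 31, and chromosome 8 held 82. Across the 6000 bins, ChIP and input counts were correlated with a Pearson's r of 0.679 on log2 values (count plus 1) and a Spearman's rho of 0.547, against 0.450 and 0.306 over bins of the flanks. These are bins of 1 pair of libraries, sharing depth and mappability, and they are not replicates.

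The sites themselves were of ordinary strength. The median site held 61 ChIP reads (interquartile range 26 to 230) in the 6 megabases, 61 (23 to 265) in the flanks and 63 (23 to 264) in the rest of the genome. Median width was 500 bp in each. Median fold over the expected count at the summit, the 200 bp window with the most ChIP reads, was 8.96, 9.26 and 9.81. The mean number of reads per site was lower in the megabases, 160.4, than in the flanks, 175.9, or the rest, 185.4. The 90th percentile was 432.8 reads in the megabases and 526.2 in the flanks, whereas the site with the most reads held 1937 in the megabases and 1168 in the flanks. Counted over a fixed 1 kb around each summit, the medians were 67 ChIP reads in the megabases and 67 in the flanks, and 38 and 35 input reads. Over that 1 kb the median ratio of ChIP to scaled input was lower than the summit fold. It was 3.12 in the megabases, 3.26 in the flanks and 3.52 in the rest of the genome. A separate call on all deposited reads, repeats included, gave 573 sites in the megabases. Its medians were 125 reads per site in the megabases and 92.5 in the flanks. With distinct reads and input scaled on background bins the medians were 48 and 41. Under the other settings of the call with a value, the ratio of the medians lay between 0.969 and 1.05. The equality of the medians thus depends on the setting of the call.

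Equal pooled medians hid opposite differences between stretches. On chromosome 10 the median site held 46 reads in the lower megabase and 61.5 in the upper one, against 77 in the flanks of the stretch. On the other chromosomes the median was higher inside than in the flanks, with 58 and 42 reads on chromosome 7, 85 and 75 on chromosome 8, 76.5 and 57 on chromosome 19, and 72 and 60.5 on chromosome 17. Without the chromosome 10 stretch and its flanks the pooled medians were 72.5 reads in the megabases and 59 in the flanks, a ratio of 1.23. The interquartile ranges of inside and flank sites overlapped in every stretch.

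**Figure D2:**
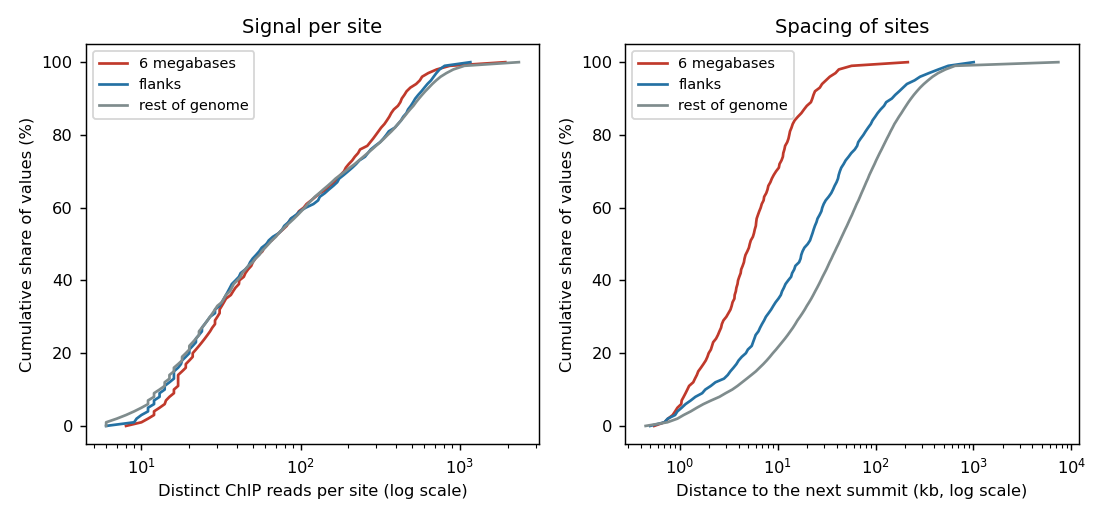
Cumulative share of sites by distinct ChIP reads per site (left, log axis) and of distances to the next summit in kb (right, log axis) for the 6 megabases, the flanks and the rest of the genome. The curves of signal per site lie close together with medians of 61, 61 and 63 reads, while the spacing curves are apart with medians of 5.2, 20.3 and 41.8 kb.

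Strong and weak sites were both more frequent. When all 29388 sites were split into 4 classes of about equal size by ChIP reads, with limits at 23, 63 and 263.2 reads, the 6 megabases held 142 sites of the weakest class (22.9% of their sites), 173 of the next, 161 of the third and 143 of the strongest (23.1%). Sites of the strongest class numbered 23.8 per Mb in the megabases and 4.38 in the flanks, a ratio of 5.44, and those of the weakest class 23.7 and 4.47, a ratio of 5.30. The reads that a site needs to be called rise with the input around it, so the weakest class is not cut off alike everywhere. Percentile 1 of reads per site was 10 in the megabases, 9 in the flanks and 6 in the rest of the genome. The lower megabase of chromosome 10 had the largest share of sites in the weakest class, 31.3%, and chromosome 8 the largest share in the strongest, 29.8%. Chromosome 17 held 21 sites of the strongest class in its 1 Mb and 8 in all 10 Mb of its flanks.

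Among the 337 megabases of the genome with at least 20 sites, the 6 took ranks 145 to 263 by median reads per site, from the 85 reads of chromosome 8 to the 46 of the lower megabase of chromosome 10. The middle value over these 337 megabases was 75 reads. Site number and median reads per site had a Spearman's rho of -0.146 across them, a description of neighbouring pieces of 1 library.

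**Figure D3:**
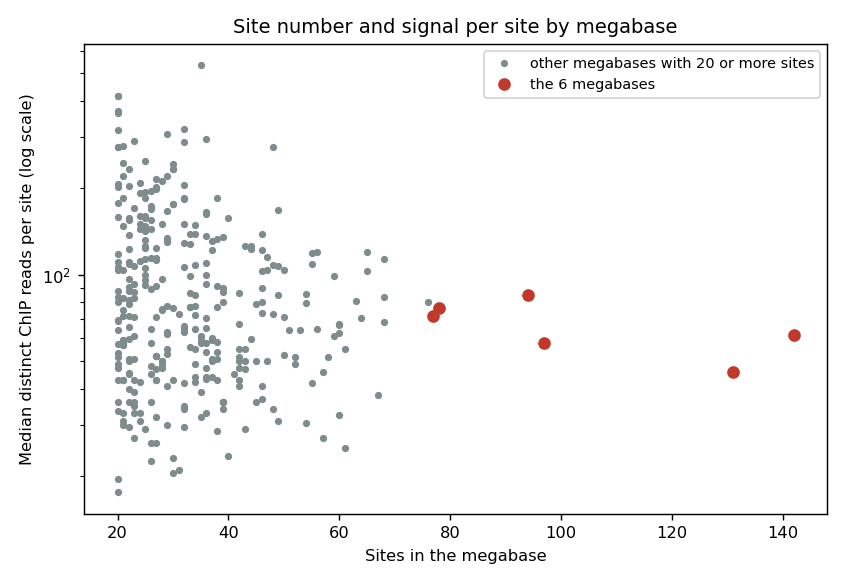
Median distinct ChIP reads per site (log axis) against the number of sites for the 337 megabases with 20 or more sites, 1 point per megabase. The 6 megabases, in red, lie farthest right with 77 to 142 sites and have medians of 46 to 85 reads, inside the range of the others.

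At their summits the sites of the 3 parts of the genome had mean profiles of similar height. ChIP reads peaked at 468.8 per kb in the megabases, 481.4 in the flanks and 459.8 in the rest, and input reads at 89.7, 91.8 and 83.8. On the shoulders the ChIP profile of the megabases was lower: at 275 bp above the summit it was 60.7 reads per kb in the megabases, 83.3 in the flanks and 97.2 in the rest, while input was 29.4, 34.7 and 33.9. Beyond about 1 kb the order was reversed. At 2 to 3 kb from the summit the mean was 19.8 ChIP reads per kb in the megabases, 7.62 in the flanks and 6.25 in the rest, and reads of neighbouring sites are part of this level. The peak was 23.6 times this level in the megabases and 63.2 times in the flanks, a difference that comes from the denominator. For input the peak was 6.90 and 11.8 times the level at 2 to 3 kb. Sites in the densest megabases were thus also places of raised input, as they were elsewhere.

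**Figure D4:**
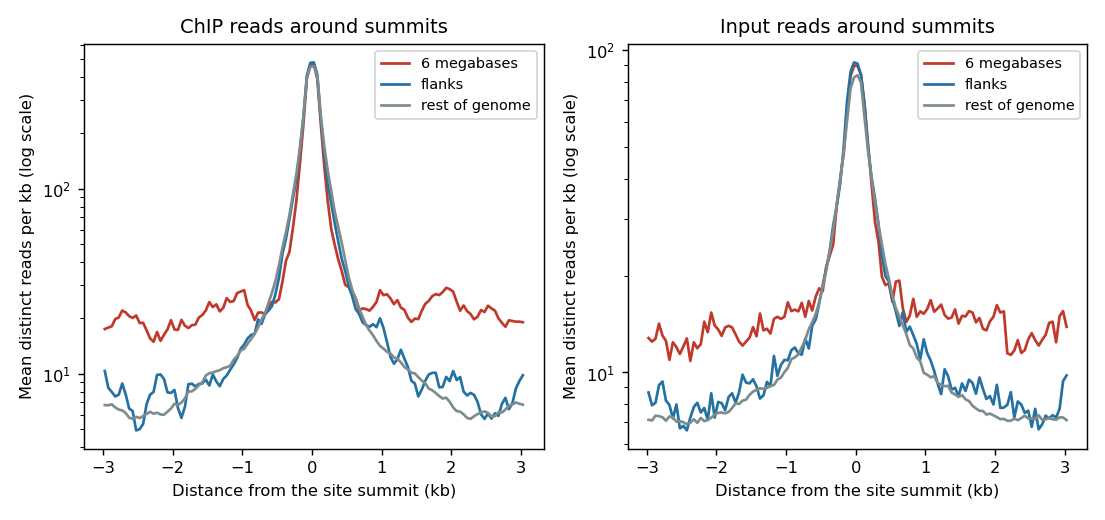
Mean distinct reads per kb in 50 bp steps around site summits for ChIP (left) and input (right), both on log axes, for the 6 megabases, the flanks and the rest of the genome. The ChIP peaks lie at 459.8 to 481.4 reads per kb, the shoulder at 275 bp is lower in the 6 megabases, and the level beyond 2 kb is higher in the 6 megabases, 19.8 against 7.62 in the flanks.

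Sites lay a few kilobases apart. The median distance between neighbouring summits was 5.2 kb (interquartile range 2.46 to 11.4 kb) in the 6 megabases, 20.3 kb (5.97 to 56.5) in the flanks and 41.8 kb in the rest of the genome. By stretch it was 3.95 kb on chromosome 8, 4.5 kb on chromosome 10, 6 kb on chromosome 7, 7.25 kb on chromosome 19 and 8.45 kb on chromosome 17. The chromosome 8 stretch, with 94 sites, was thus more closely spaced at the median than that of chromosome 10, with 136.5 per Mb, because its sites lay in blocks. Of all neighbouring pairs in the megabases 70.4% were under 10 kb apart and 5.21% under 1 kb, against 34.7% and 4.21% in the flanks.

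Chains of sites were frequent. When summits at most 5 kb apart were joined, 164 of the 619 sites (26.5%) fell into 25 chains of at least 5 sites, against 56 of 817 (6.85%) in the flanks and 2.84% in the rest of the genome. Sites in no chain made up 31.7% in the megabases and 67.1% in the flanks. Closer spacing alone puts more sites into chains. The longest chains had 10 sites, and all 3 of these lay on chromosome 10. That at 80591901 to 80617300 held 2393 ChIP reads in its sites, of which 1580 came from 1 site, while that at 80725351 to 80748850 held 732. In the chain at 79610701 to 79635900, with 1500 ChIP reads, the sites ran from 13 to 562 reads, so that strong and very weak sites lay within the same 25.2 kb.

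Sites with a near neighbour were weaker than lone ones, inside the megabases and outside. In the megabases the 210 sites with another summit within 2 kb held a median of 47.5 ChIP reads, the 324 with one at 2 to 10 kb held 69.5, and the 85 with none within 10 kb held 168. In the flanks the medians were 42, 48 and 84 reads, and in the rest of the genome 50, 58 and 68. Of the lone sites in the megabases 40% were in the strongest class by reads, against 12.4% of those with a neighbour within 2 kb. The classes differ in make-up, since lone sites were 13.7% of sites in the megabases, 50.8% in the flanks and 66.2% in the rest. Within each of the 3 classes the median was higher in the megabases than in the flanks, although the medians over all sites were equal.

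Along each megabase the sites were unevenly spread. Over the 60 pieces of 100 kb the number of sites ran from 0 to 24 with a median of 10. Both extremes lay on chromosome 8, where 73300001 to 73400000 held 24 sites, 43.1 ChIP and 18.0 input reads per kb, and 73600001 to 73700000 held no site, 2.46 ChIP and 9.30 input reads per kb. The site-free piece of chromosome 8 belonged to the longest gap of the 6 megabases, 213.1 kb from 73583251 to 73796350, with 2.01 ChIP and 7.98 input reads per kb. Input there was above the genome mean of 4.87 per kb, and 1.42% of its bins held no input read, so the gap was covered by reads. The longest gap on chromosome 19 ran over 123 kb from 5149351 to 5272400. On chromosome 7 the longest was 63.9 kb, on chromosome 17 it was 59.5 kb, and in the lower and upper megabases of chromosome 10 it was 56.8 and 39.7 kb. No piece of 100 kb on chromosome 10 or on chromosome 17 held fewer than 5 sites.

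Over the 60 pieces the number of sites went with ChIP reads (Spearman's rho 0.748) and with input reads (0.763). Within single megabases, over 10 pieces each, the rho between sites and ChIP reads was 0.311 in the lower megabase of chromosome 10, 0.388 on chromosome 17, 0.576 in the upper megabase of chromosome 10 and 0.899 to 0.963 on chromosomes 7, 8 and 19. Between sites and input reads it was higher in the first 3 of these, at 0.689, 0.708 and 0.8545. On chromosomes 7, 8 and 19 the rho with input reads was 0.918, 0.738 and 0.880. In the lower megabase of chromosome 10, the piece at 79400001 to 79500000 held 18 sites but 10.0 ChIP reads per kb, with a median of 19 reads per site, while 79600001 to 79700000 held 19 sites and 33.9 ChIP reads per kb, with a median of 101.

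**Figure D5:**
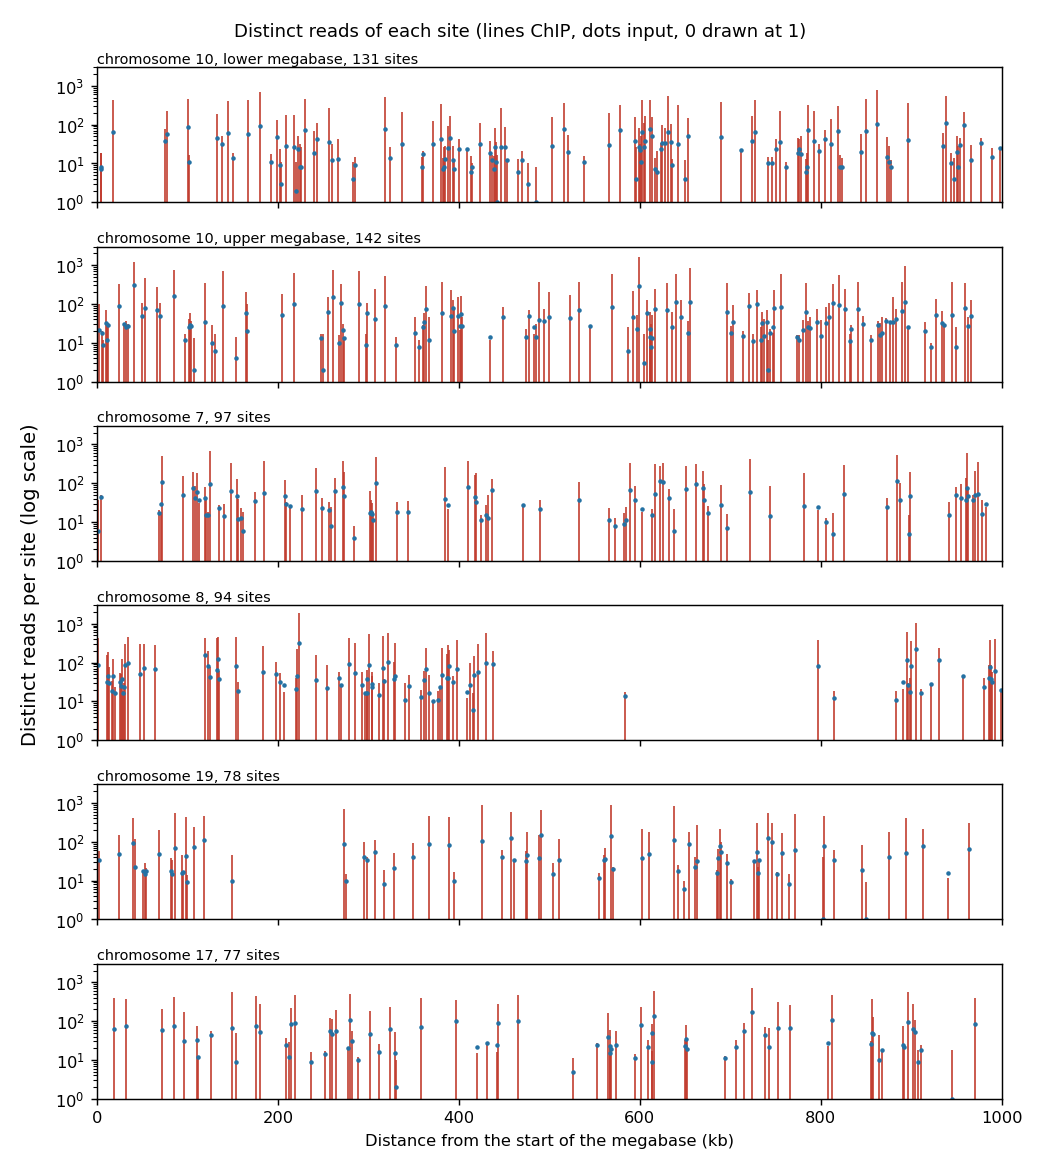
Distinct reads of each of the 619 sites along the 6 megabases, with ChIP reads as lines and input reads as dots on a log axis (input of 0 drawn at 1), against the distance from the start of the megabase in kb. Weak and strong sites are mixed along each megabase, and the chromosome 8 panel has a gap of 213.1 kb without a site.

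The 12 sites with the most ChIP reads lay on chromosome 10 (7 sites), chromosome 19 (3) and chromosome 8 (2). The first, at 73222101 to 73224900 of chromosome 8, was 2800 bp wide and held 1937 ChIP and 326 input reads, which gave it rank 13 among all 29388 sites by reads. Its summit window held 354 ChIP reads, 18.6 times the expected count (95% Poisson interval 16.7 to 20.7). The site at 80597901 to 80601050 of chromosome 10 was the widest in the 6 megabases at 3150 bp and held 1580 ChIP and 296 input reads, with a summit fold of 15.1 (13.2 to 17.3). The third, at 80039101 to 80041500 of chromosome 10, held 1235 ChIP and 302 input reads and had a fold of 15.2 (13.4 to 17.05). These 3 sites were 2400 to 3150 bp wide, several times the median.

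The other 9 of the 12 held 732 to 1017 ChIP reads and 107 to 228 input reads over 1000 to 2100 bp. On chromosome 19 they lay at 5567251 to 5568350, 5424351 to 5425500 and 5637051 to 5638200, each about 1 kb wide, with 904, 870 and 853 ChIP reads. On chromosome 8 the site at 73904351 to 73906450 held 1017 ChIP reads. On chromosome 10 the sites at 80892551 to 80894200 with 958 ChIP reads and at 80654951 to 80655950 with 841 had the same number of input reads, 112. The latter marks the lower edge of the longest gap of its megabase. The lower megabase of chromosome 10 contributed 1 site to the 12, at 79861251 to 79862450 with 787 ChIP reads, although it held 131 sites.

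Chromosomes 7 and 17 had no site among the 12. The site with the most reads on chromosome 17, at 56723451 to 56725050, held 726 ChIP and 177 input reads, and that on chromosome 7, at 52124101 to 52125300, held 684 and 96. The widest site was also the one with the most reads on chromosome 17, on chromosome 8 and in the upper megabase of chromosome 10. It was not so elsewhere: the widest site of the lower megabase of chromosome 10, at 79957401 to 79958950, held 211 ChIP reads over 1550 bp at a summit fold of 4.53, and the widest on chromosome 19, at 5756801 to 5758250, held 165 over 1450 bp.

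By fold over the expected count other sites came first. The highest fold in each megabase was 48.2 (95% Poisson interval 41.4 to 55.9) at 79446601 to 79447300 and 44.2 (38.5 to 50.4) at 80118701 to 80119500 of chromosome 10, 46.8 (40.9 to 53.3) at 5663401 to 5663950 of chromosome 19, 45 (38.3 to 52.6) at 52781201 to 52781750 of chromosome 7, 37.1 (32.5 to 42.2) at 73387651 to 73388250 of chromosome 8 and 36.5 (32.6 to 40.6) at 56148451 to 56149150 of chromosome 17. These sites were 550 to 800 bp wide and held 187 to 547 ChIP reads. The intervals of neighbouring values overlapped, while those of the first sites named on chromosomes 10 and 19 lay above that of chromosome 17. All these intervals take the expected count as exact. At the sites just named on chromosomes 10, 19 and 17 it rested on 27, 36 and 67 input reads. Each site was also picked for the highest fold of its megabase, so the intervals cannot rank these sites. None was the site with the most reads of its megabase.

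At the other end, each megabase held sites of 8 to 10 ChIP reads. The weakest of the lower megabase of chromosome 10, at 79484851 to 79485100, held 8 ChIP and 1 input read with a fold of 9.20 (3.97 to 18.1), and that of chromosome 8, at 73370651 to 73370900, held 10 ChIP and 10 input reads with a fold of 6.13 (2.94 to 11.3). Such intervals are wide, and in a window with as many input as ChIP reads the call rests on the lower input around it. Reads were concentrated in few sites: the 62 sites with the most reads, 10% of the 619, held 39.7% of all ChIP reads in sites, a share close to the 39.0% of the flanks and the 42.1% of the rest of the genome.

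A call that skipped windows with 10 or more times the average input affected the megabases unequally. Of the 619 sites, 364 (58.8%) overlapped a site of that more restricted call, against 58.5% in the flanks and 65.8% in the rest of the genome. An overlap can be partial. Sites of the restricted call held a median of 31 reads in the megabases and 32 in the flanks. In the main call both medians were 61. By reads in the main call, sites with an overlap held a median of 60.5 in the megabases and those without one 62. These medians were 53.5 and 80 in the flanks and 56 and 100 in the rest of the genome. In the lower megabase of chromosome 10, 114 of 131 sites (87.0%) had such an overlap, whereas in the upper one 77 of 142 (54.2%) did. In the other megabases between 46.8% and 52.6% did. The lower megabase of chromosome 10 had the least input around its summits, a median of 27 reads per kb against 39 in the upper one and 39 to 45 in the others. Under that setting the lower megabase came first with 124 sites and the upper one second with 82.

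Repeated reads were no more frequent at raised bins of the megabases than at those of the flanks. All deposited ChIP reads per distinct position were 2.67 in raised bins of the megabases and 2.68 in those of the flanks, and input reads 1.18 in both. Far from sites the ChIP values were 1.67 and 1.54. Over the whole stretches, ChIP held 2.47 reads per position in the megabases and 2.29 in the flanks.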

How the data were processed

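Per the labels' protocols, MIN6 chromatin was fixed with formaldehyde, sonicated and precipitated, and libraries were made with a commercial kit. The submitters' processing notes name BWA, SAMtools 0.1.19, bedtools 2.17.0 and mm9, without settings. The deposited files list aligned reads spanning 33 to 38 bp, each with a count of 1, so sums over lines are raw read counts. How reads with several matches were placed: not given in the sources used here.

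Distinct reads on 21 nuclear chromosomes were used. Bins of 1 kb counted 5 prime ends as deposited. For sites, ends were moved 110 bp, 0.5 of the 220 bp fragment length found by strand cross-correlation. The Poisson test ran on 26834433 windows of 200 bp, 50 bp apart, with input scaled by 0.6795, the ratio of totals, and joined within 200 bp, with windows of high input kept. A site belongs to the bin of its summit. The caller was tested on simulated data. Python 3.11.15, NumPy 2.4.6, SciPy 1.17.1 and matplotlib 3.10.9 were used.

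Sites were named by rule: in each megabase the site with the most ChIP reads, the widest and that with the highest fold, the longest gap, and the 12 sites with the most reads overall. Sites with the fewest reads, 100 kb pieces and chains were chosen after their values were seen. The megabases, rule and lists were chosen with earlier results of these data known. No sequence or annotation of mm9 was used, so sites carry no gene names.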

Additional observations from a re-analysis of the deposited data

How the results depend on the processing

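No paired analysis was possible because ChIP and input had 1 library each. The 619 sites became 390 when high-input windows were skipped and stayed within 1.5 times under the other 7 settings (444 to 733). The ratio of site density to the flanks, 5.91, stayed within its counting interval under all 8 settings of the call (5.50 to 6.02). Added after the values were seen, it was 3.60 with flanks of 2 Mb, and 5.07, 7.57 and 5.29 without the stretches of chromosomes 10, 19 and 17. The ratio of median ChIP reads per site, 1, was 1.35 in the call on all deposited reads. Added after the values were seen, it was 1.17 with input scaled on background bins. The ratio of median spacing, 0.256, was 0.209 when high-input windows were skipped. The ratio of ChIP reads per kb, 4.32, was 4.66 with all deposited reads, 4.19 over bins with input reads and 2.96 with flanks of 2 Mb, and that of input, 2.05, was 2.13, 1.97 and 1.78. The share of raised bins, 7.40%, was 14.7% with input scaled on background bins (genome 1.67%), 4.23% at a fold of at least 5 (0.531%) and 5.30% with all deposited reads (0.596%). Apart from flank width, which brings in the shoulders of the dense regions, the cause of these moves was not tested. Sites of 8 to 10 reads are near the limit that this depth allows.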
